A study of Mus musculus with 17 samples.

Results

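In pancreatic tumours of mice, a stop codon or a frameshift was called at 13 sites, and 8 of them, in 8 genes of varied function, are described here. The exomes belong to a study of how losing the glucagon receptor (GCGR) bears on neuroendocrine tumours that start in alpha cells. They are Sco1 and Mmadhc (metal and vitamin metabolism), Apobec3 and Ercc6l2 (nucleic acid defence and repair), Dnm2 and Slc17a6 (membrane traffic and transmitter storage), Naa38 (protein acetylation) and Cilp (extracellular matrix). The members were chosen by the deposited annotation, as every call in these genes marked as a stop or a frameshift. That they are truncating is therefore described without a test. They make up 11 of 390 calls and 8 of 258 distinct sites, in 8 of 209 genes. No other call was analysed in any of the 8 genes.

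Exomes, the captured protein-coding part of the genome, were read in 11 pancreatic tumours of 6 mice and in 6 control samples of pancreas, 1 from each animal, 17 in all. The sample labels give no genotype, strain, age or driver of the GCGR loss, and the treatment is given as none. A call is a change found in a tumour and not ascribed to its matched control, so no call belongs to a control. A tumour allele fraction is the share of reads at the site that carry the altered base, and the control fraction is the same share in the control. Read depth is unknown, so no interval can be given for any fraction, and 12 of 402 lines of the table were empty in the copy used.

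A stop codon ends translation at that residue. A frameshift replaces all following residues by unrelated ones until a stop is met in the new frame. Messenger RNA with a stop well before its last exon junction is commonly degraded, whereas a stop in the last exon usually leaves the messenger RNA intact and gives a shortened protein. In a diploid cell, loss of 1 copy leaves the other, and if every cell in a sample carried the change on 1 of its alleles the fraction would be near 50%. A lower fraction can come from a change in only part of the cells or from other cells in the sample, which cannot be told apart here. Whether the calls at low fractions are true changes was not tested. RNA and protein were not measured in these samples.

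The 4 frameshifts were all deletions. Deletions and insertions together were 3.79% of all sites counted once per mouse (10 of 264), and their split was not counted. The alleles are shown because the bases lost decide whether the reading frame or a splice site is hit. They are given as the deposited table lists them, in forward genome orientation, with the deleted bases in capitals after the retained base that anchors the call.
Apobec3: gGAAAGAT
Mmadhc: tTACA
Naa38: tCCAGA
Cilp: tG
The Apobec3 deletion removed 7 coding bases (chr15:79895474-79895480) and the Cilp deletion 1 coding base (chromosome 9, 65280131). Those in Mmadhc (chr2:50296249-50296252) and Naa38 (chr11:69396516-69396520) crossed an exon border. Read along the coding strand, with intron bases in capitals, the bases deleted at these borders were as follows.
Mmadhc: tGTA
Naa38: CCAGa
Mmadhc lost the last coding base of its exon and the first 3 bases of the intron, including the GT with which introns begin. Naa38 lost the last 4 bases of the intron, including the AG with which introns end, and the first coding base of its exon. Each of the 4 deletions removed a number of coding bases that leaves a remainder of 1 when divided by 3, so each shifted the frame. For Mmadhc and Naa38 the protein made depends on where splicing then occurs, which these data do not show. Positions are 1-based as the file gives them. The submitters' processing notes name the human build GRCh38, but all 8 sites lie inside the GRCm38 span of the gene named.

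The 4 stop codons were single-base changes. In Sco1 the third base of codon 18 changed from G to A, which makes tga from tgg, the only tryptophan codon. In Slc17a6 the first base of codon 385 changed from A to T, and aga is the only arginine codon that then gives a stop, tga. In Ercc6l2 and Dnm2 the first base of a glutamate codon changed from G to T, and gaa or gag would give taa or tag. Which of these it was cannot be told from the call alone. No member had an identifier of a variant database. Such an identifier was given for 0 of the 91 sites shared by the tumours of mouse 1 and for 65.2% of the sites of mouse 2 (30 of 46). The share over all sites was not counted.

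The cuts lay anywhere from the start of the protein to near its end. From the named residue to the end, the share of the protein lost ranged from 6.48% in Cilp to 99.3% in Mmadhc, with a median of 80.6% over the 8 sites. More than 80% was lost in 4 of the 8 (Mmadhc, Sco1, Apobec3 and Ercc6l2), and more than 50% in 5. The cut was in the last exon in 2 of 8, Naa38 and Cilp, and before it in the other 6. Among protein-altering sites in transcripts of 2 or more exons, 17% were in the last exon (35 of 206). The 5 truncating sites in other genes (Adam6b, Tet3, Vmn2r101, Vmn2r114 and Olfr44) lost between 2.55% and 85.2% of their proteins.

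**Figure D1:**
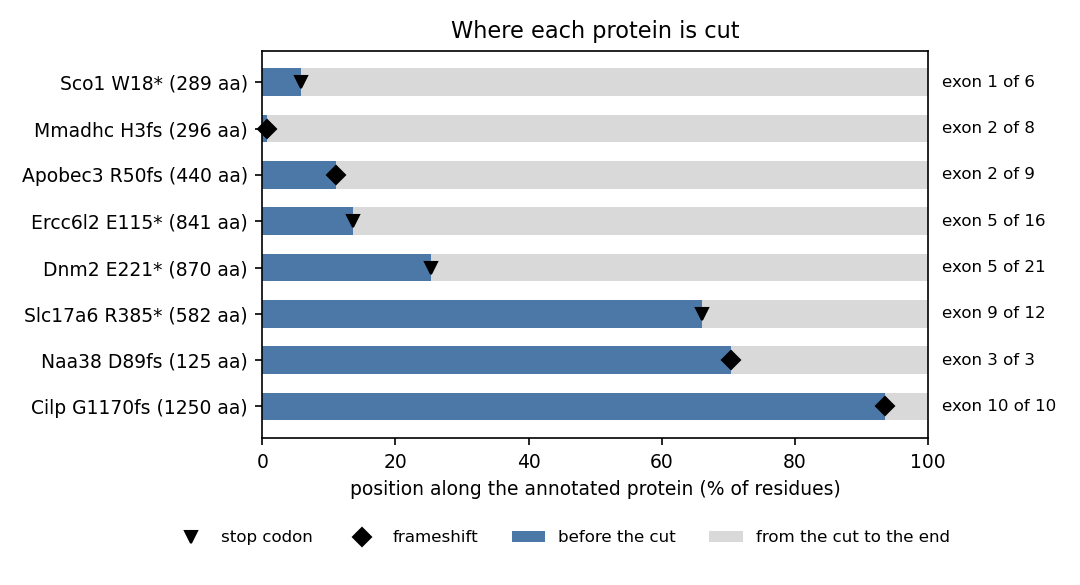
Position of the cut along each annotated protein, in percent of its residues. Blue is the stretch before the named residue, grey the stretch from it to the end, and the text at the right gives the exon hit. Mmadhc, Sco1, Apobec3 and Ercc6l2 are cut near the start and Cilp near the end.

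Sco1 encodes a copper-binding protein of the mitochondrial inner membrane that helps deliver copper to cytochrome c oxidase, the last complex of the respiratory chain. W18* (ENSMUSG00000069844, chromosome 11, 67052748) was in exon 1 of 6 and left 17 of 289 residues, a loss of 94.1%. The copper-binding region lies in the C-terminal part, beyond the cut. The stop was at 15.2% in tumour 1 and 15.6% in tumour 2 of mouse 1, and at 0 in the control. Both values were above the median of the missense calls of the same tumour, 11.2% and 14.3%. The tumour 2 value over the tumour 1 value was 1.03, and 20 of the 91 sites shared by these tumours had a lower ratio (median 1.32). In humans, loss of SCO1 function on both copies causes cytochrome c oxidase deficiency.

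Mmadhc encodes a protein that directs vitamin B12 to its enzymes in the cytosol and in mitochondria, named cblD for the human disorder. H3fs (ENSMUSG00000026766, chromosome 2, 50296248) was in exon 2 of 8 and left 2 of 296 residues if splicing is unchanged and no later start codon is used. In humans, some truncating changes near the start of MMADHC are known to spare part of its function because translation restarts at a later methionine. The deletion was called in tumour 3 of mouse 3 at 11.7%, with a control fraction of 0, and in neither of the other tumours of that mouse. It was the fifth highest of 17 calls of its tumour, above 12 of 16 missense calls, whose median was 6.50%.

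Apobec3 encodes a cytidine deaminase that restricts retroviruses, and in the mouse it underlies the Friend virus resistance locus Rfv3. R50fs (ENSMUSG00000009585, chromosome 15, 79895473) was in exon 2 of 9 and left 49 of 440 residues before the frame changed, so that 88.9% was lost. It was at 6.25% in tumour 1 and 10% in tumour 2 of mouse 1, with a control fraction of 0. Both values lay below the missense median of their tumour, with 19 of 90 and 25 of 107 missense calls lower. The ratio of tumour 2 to tumour 1 was 1.6, and 61 of the 91 shared sites had a lower one. Mice without Apobec3 are known to be viable.

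Ercc6l2 encodes a helicase-like protein of the family of ERCC6, which acts in DNA repair, and in humans loss of both copies causes a bone marrow failure syndrome. E115* (ENSMUSG00000021470, chromosome 13, 63841428) was in exon 5 of 16 and left 114 of 841 residues, a loss of 86.4%. It was called only in tumour 2 of mouse 1, at 6.25%, with a control fraction of 0. It ranked 113 of the 125 calls of that tumour by fraction, above 10 of 107 missense calls.

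Dnm2 encodes dynamin 2, a GTPase that pinches vesicles off membranes during endocytosis, and mice without it die as embryos. E221* (ENSMUSG00000033335, chromosome 9, 21471414) was in exon 5 of 21 and left 220 of 870 residues, so that 74.7% was lost. The cut falls inside the GTPase domain at the N terminus, and the membrane-binding and proline-rich regions lie beyond it. The fraction was 47.4% in tumour 1 and 45.3% in tumour 2 of mouse 2, beside missense medians of 45.5% and 43.8%, and 0 in the control. These are near the 50% of a change on 1 allele in every cell.

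The Dnm2 values were close to those of the other sites that the tumours of mouse 2 shared, which had medians of 46.7% and 44.5%. Of the 34 shared sites, 29 had a database identifier and 5 did not, Dnm2 being among the 5. The others without an identifier were R114G in Pfn3 at 99.0 and 100%, N42T in Olfr239 at 52.9 and 50.9%, G3306A in Akap9 at 60.9 and 43.6%, and L330M in Tex24 at 12.5 and 16.7%. Across all sites of mouse 2, 65.2% had an identifier (30 of 46). Whether the Dnm2 stop was inherited or arose in the animal was not tested.

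Slc17a6 encodes VGLUT2, which loads glutamate into secretory vesicles, and mice without it die at birth. R385* (ENSMUSG00000030500, chromosome 7, 51666138) was in exon 9 of 12, leaving 384 of 582 residues, and removed 34.0%, the C-terminal part of a transporter that spans the membrane many times. It was called only in tumour 1 of mouse 1, at 3.92%, with a control fraction of 0. Only 6 of 90 missense calls of that tumour were lower. It was a tier 2 call, a deposited class whose meaning is not given and which covered 13.6% of all calls.

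Naa38 encodes a small auxiliary subunit of NatC, an enzyme complex that acetylates the N termini of proteins. D89fs (ENSMUSG00000059278, chromosome 11, 69396515) was at the start of exon 3 of 3 and left 88 of 125 residues, a loss of 29.6%, if splicing is unchanged. It was called in tumour 1 of mouse 6 at 2.80%, the lowest fraction of the 11 calls, with a control fraction of 0. Of the 5 missense calls of that tumour 1 was lower, and their median was 6.64%. It was also a tier 2 call, and tumour 2 of mouse 6 did not have it.

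Cilp encodes a matrix protein of cartilage that is made as a precursor and cleaved, and that is known to bind and dampen TGF-beta. G1170fs (ENSMUSG00000042254, chromosome 9, 65280130) was in exon 10 of 10, leaving 1169 of 1250 residues, so that only the C-terminal 81 residues, 6.48%, were lost or replaced. It was at 81.3% in the tumour of mouse 4, with a control fraction of 0. This was the highest of the 14 calls of that tumour, ahead of A224S in Cyp51 at 53.7% and L80F in Gm9913 at 50.4%, while the missense median was 8.60%. The call was 1 of 5 in the whole table with a homozygous genotype, the others being those of Pfn3 and Kctd12 in mouse 2. Its quality score of 2629 was the second highest of 138 sites that have one. A fraction above 75% needs most copies of the gene in the sample to carry the deletion, and copy number was not measured here.

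Fractions of the 11 calls fell into 3 ranges. Under 25% were 8 calls, the 2 Dnm2 calls were between 25 and 75%, and Cilp was above 75%. Over all calls, 75.6% were under 25%, 23.1% between and 1.28% above. All 11 had a control fraction of 0, as had 80% of all calls, and calls were chosen as tumour-specific. A quality score was given for Sco1, Dnm2 and Cilp (5 calls, 15.2 to 81.3%) and not for the other 6 calls (2.80 to 11.7%). It was given for 55.9% of all calls, whose median fraction was 16.0% against 9.76% without it.

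**Figure D2:**
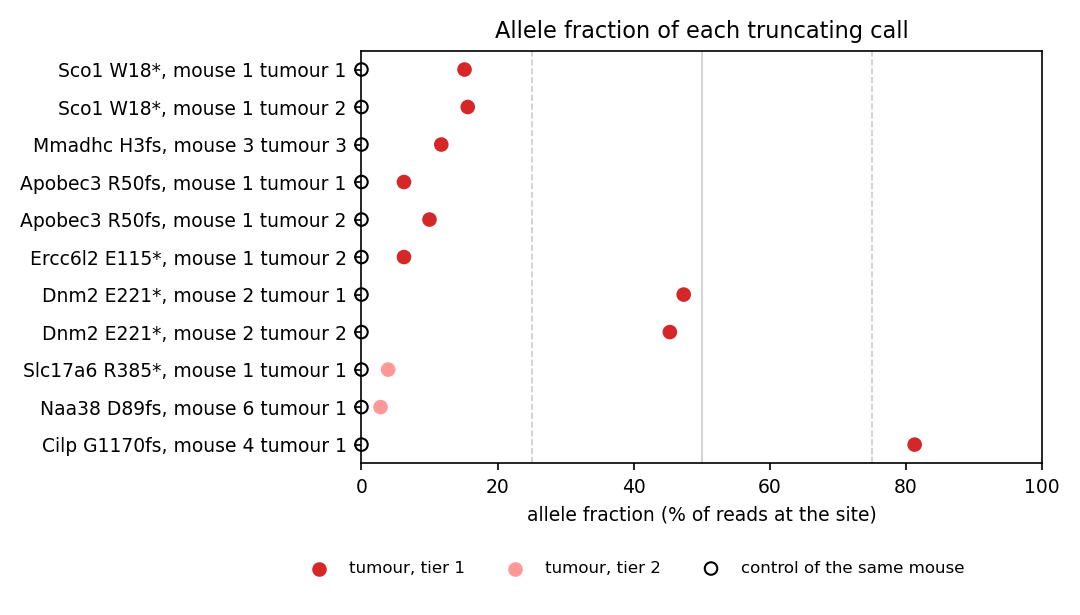
Allele fraction, in percent of reads at the site, of each of the 11 truncating calls in the tumour (filled, pale for tier 2) and in the control of the same mouse (open circles). Dashed lines mark 25 and 75% and the solid line 50%. The controls are all at 0, Dnm2 lies near 50% in both tumours and Cilp at 81.3%.

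The next question was whether the truncating calls of the 8 genes stood apart in fraction from the missense calls of the same tumours. The 8 truncating calls in other genes were left out of both sides. The rule for members did not use the fraction, though they were chosen with earlier results of these data known. Per tumour, the mean of the member calls was set against the missense median, and where fractions are skewed these can differ without a shift. The member calls did not stand apart in a common direction. The mean difference within mice, truncating minus the missense median, was 14.5 percentage points ± 32.7 (SD, n = 5 mice; exact two-sided sign-flip permutation p = 0.562). With 5 mice the smallest p this test allows is 0.0625. The difference was positive in 3 mice, at 1.70 points in mouse 2, 5.23 in mouse 3 and 72.7 in mouse 4, and negative in 2, at -3.23 in mouse 1 and -3.84 in mouse 6. The mean rests on Cilp in mouse 4, and without that mouse it was -0.0322 points (exact permutation p = 1). Pooled over tumours with no pairing, the median of the member calls minus the missense median was -1.31 points, and the mean of the member calls minus the same median was 9.30 points.

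**Figure D3:**
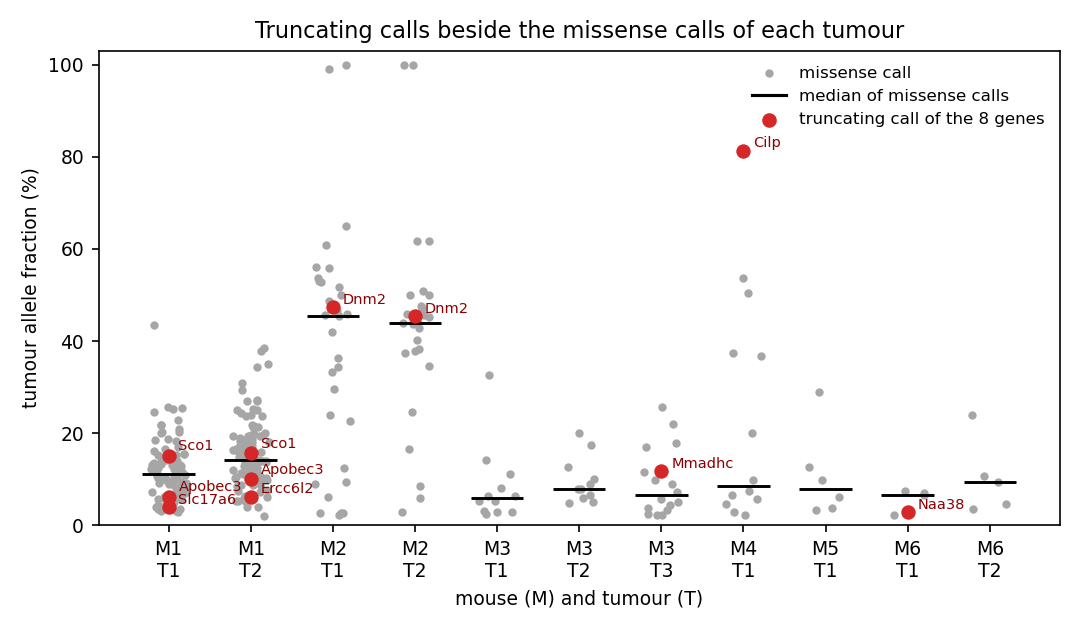
Tumour allele fraction, in percent, of the missense calls of each tumour (grey points, with their median as a line) and of the truncating calls of the 8 genes (red, with the gene named). Cilp lies above every missense call of the tumour of mouse 4, Dnm2 lies near the medians of mouse 2, and Slc17a6, Ercc6l2 and Naa38 lie low in their tumours.

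The truncations were spread over 7 tumours of 5 mice. Mouse 1 had 4 of these genes (Sco1, Apobec3, Slc17a6 and Ercc6l2), mice 2, 3, 4 and 6 had 1 each, and mouse 5 had 0. Among all protein-altering sites, counted once per mouse, 5.42% were truncating (13 of 240), with 4.58% in mouse 1, 5.56% in mouse 2, 7.14% in mice 3 and 4, and 9.09% in mouse 6. These shares also count the 5 truncating sites in other genes, which were in mice 1, 2 and 3. No member gene had a call in more than 1 mouse, and of all 209 genes with a call 3.83% had. In the mice with several tumours, 3 of 7 member sites were shared by both tumours of the mouse, namely Sco1, Apobec3 and Dnm2, and 4 were in a single tumour. In mouse 1, 2 of 4 member sites were shared beside 64.1% of all its sites, and in mouse 2 the only 1 was shared beside 73.9%. The Mmadhc and Naa38 sites were in mice 3 and 6, where 2.27% (1 of 44) and 0% (0 of 11) of all sites were shared. Members shared in mouse 1 were at 6.25 to 15.6% and those in a single tumour at 3.92 and 6.25%, beside medians over all its sites of 12.5 and 16.0% for shared ones in tumours 1 and 2 and 9.55% for the rest. In the same mouse 12% of sites (17 of 142) were in immunoglobulin segments, against 0 in the other mice, and their part in the 4 member sites of mouse 1 was not tested.

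For each member a list of genes of the same pathway or family was drawn up, with earlier results of these data known. Calls in these partner genes were counted without a test. In 7 of the 8 lists, 0 of the other listed genes had a call. These 7 cover cytochrome c oxidase assembly, cobalamin handling, N-terminal acetylation, endocytosis, vesicular transmitter transport, cytidine deaminases and ERCC6-like repair. The lists do not hold every gene of a pathway. Hip1r and Fchsd2, absent from the endocytosis list, had missense calls in both tumours of mouse 1 (14.0 and 15.1%, and 7.5 and 25.2%). In the list of 16 other matrix genes 2 had 1. Over all lists this was 2 of 113 genes (1.77%), beside 0.9% of the 21900 protein-coding genes of the reference. Acan, which encodes aggrecan, the main proteoglycan of cartilage, carried the missense change H1938P at 37.5% in the tumour of mouse 4 that had the Cilp deletion (chromosome 7, 79111354), with a control fraction of 0. Prg4, which encodes the joint lubricant lubricin, carried S646P at 6.64% in tumour 1 of mouse 6 (chromosome 1, 150454985), and its control was at 3.29%. A gene without a call among those analysed is not shown to be unmutated.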

How the data were processed

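The submitters' processing notes name BWA and GATK, without versions or roles, and the file headers name Strelka as the caller. Allele fractions were deposited as a fraction from 0 to 1 and are printed as percentages. The tier and the quality are scores deposited by the authors with no scale given. Residue, protein length and exon are those of the 1 transcript the file names per gene, and other isoforms can differ. Of 390 calls, 330 had the exon number turned into a date in the deposited sheet. It was read back as month over day (or year), since all 60 ranks kept as text are above 12 and no dated rank exceeds its total. The genotype of Cilp was read back likewise. Gene spans are from the RefSeq table of GRCm38. The share lost counts residues from the named one to the end. Member and missense fractions were compared within tumours, averaged per mouse and tested by an exact sign-flip test over mice. The test was checked first on simulated data with more mice and evenly spread fractions. That check does not show how the test behaves on these data. The mouse number in the labels matches a tumour with its control. The depth per sample is unknown. All 8 members, and partner genes with a call, are named. Members and gene lists were chosen with earlier results of these data known. Analysis used Python 3.11.15 and pandas 2.3.3.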

Additional observations from a re-analysis of the deposited data

Results flagged for a closer look

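Over the 5 mice with a member, the difference between member and missense fractions in mouse 4, 72.7 percentage points, stood far from the next value of 5.23 for the range of the 5. It rests on 1 call, the Cilp frameshift. Of 3 quantities compared over mice this was the only 1 with such a value. Chance alone gives about 1 in 20 for each quantity if its values are normally distributed, and more often than that for any of the 3.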

How the results depend on the processing

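The sign-flip test of member against missense fractions cannot go below 0.0625 with 5 mice, so its p says nothing about stability, and the pooled values have no test. The sign turned without mouse 4 (-0.0322 percentage points). It also turned without the replicate block (-1.31 points), where pooled medians replaced the means of the member calls. With their pooled mean, an alternative chosen after seeing the data, it did not turn (9.30 points), so the turn cannot be put down to the block. Leaving out each mouse in turn gave -0.0322 to 19.1 points. It stayed positive with tier 1 calls only, with all other protein-altering calls as the comparison, on the log2 scale, and with calls whose control fraction is 0. The numbers of calls per fraction range were the same with limits of 0.2 and 0.8 or 0.3 and 0.7. Of the 11 member calls 9 were tier 1. The 3 shared sites were also 3 when matched by gene, and the 2 partner genes both had protein-altering calls. The planned check of residues and protein lengths against RefSeq proteins was not run, because no protein sequences were used here. Depth is unknown for every fraction.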
